A study of Rattus norvegicus and Mus musculus with 12 samples.

Results

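The expression of 9 genes of the interleukin-6 (IL-6) family was examined in articular chondrocytes of rats and mice that had or had not been stimulated with IL-1β, an inflammatory cytokine. The genes were the ligands Il6, Lif, Il11 and Clcf1, the receptor subunits Il6st, Il6ra, Lifr and Osmr, and the feedback inhibitor Socs3. They were taken by gene symbol from the deposited RNA-seq tables. This gave 17 gene rows of 48290, which were 8 of the 19687 rat genes and 9 of the 28603 mouse genes. No row of the rat table carried the symbol Il6ra. RefSeq lists Il6ra as another name of rat Il6r (ENSRNOG00000020811), so Il6r is described as its rat counterpart and is counted apart from the 8 rat genes. There were 12 libraries of passage 1 chondrocytes from the cartilage of newborn animals, with 3 libraries in each of 4 groups. The RC group (rat control) and the RM group (rat model) came from Sprague-Dawley (SD) rats. The MC group (mouse control) and the MM group (mouse model) came from mice that the study names C57BL/6, whereas the strain labels of the mouse libraries run from C57BL/6 to C57BL/9. Only RM and MM had received IL-1β, at 20 ng/ml for 24 h. The study calls the samples of a group independent, and the labels do not say whether they came from separate animals or cultures, so P values measure only the spread between these samples, which may be technical.

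The cytokines of this family signal through gp130, the protein encoded by Il6st. IL-6 and IL-11 bind a receptor of their own that then joins gp130, whereas LIF uses gp130 together with the LIF receptor, and the cytokine encoded by Clcf1 uses both together with the CNTF receptor. Oncostatin M uses gp130 with the OSM receptor. The assembled receptors activate JAK kinases and the transcription factor STAT3, and STAT3 induces Socs3, whose protein binds gp130 and limits the signal. In joint tissue, these cytokines are known as products of chondrocytes and synovial cells that respond to IL-1β, and IL-6 is known to favour the loss of cartilage matrix.

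The rat promoters of Il6 and Il11 are shown. Of the genes with an entry, only these had a given start at the outer end of the gene. Il6 had the largest change of the 9 genes in rat, and Il11 was the rat gene that did not pass the test. Both promoters are the 250 bases before the gene's start in RefSeq on the rat build GRCr8. This is a later build than the Rnor_6.0 named for the deposited files. Capitals mark matches to the motifs searched. The Il6 window is chr4:5894576-5894825 on the minus strand, and the Il11 window is chr1:78098372-78098621 on the plus strand.
Il6: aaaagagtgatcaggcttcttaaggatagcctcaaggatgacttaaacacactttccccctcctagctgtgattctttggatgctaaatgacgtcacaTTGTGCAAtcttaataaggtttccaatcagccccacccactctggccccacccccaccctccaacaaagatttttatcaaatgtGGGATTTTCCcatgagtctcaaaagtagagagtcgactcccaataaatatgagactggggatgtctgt
Il11: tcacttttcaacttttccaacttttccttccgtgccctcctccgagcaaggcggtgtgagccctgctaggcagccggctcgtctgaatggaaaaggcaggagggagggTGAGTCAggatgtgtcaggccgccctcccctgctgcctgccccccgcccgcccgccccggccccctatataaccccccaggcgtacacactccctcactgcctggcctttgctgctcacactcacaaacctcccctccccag
Both strands were searched for the STAT motif TTCNNNGAA, the AP-1 motif TGAGTCA or its reverse complement TGACTCA, the C/EBP motif TTGCNNAA, the TATA box TATAAA and the NF-κB motif. The Il6 window held an NF-κB match, GGGATTTTCC, at bases 68 to 59 before the start, and a C/EBP match on the opposite strand, TTGTGCAA as printed, at bases 152 to 145. The Il11 window held an AP-1 match, TGAGTCA, at bases 142 to 136. In the windows shown, no match overlapped another. Of 33469 rat promoter windows of the same length, 6.33% held the NF-κB motif, 9.22% the C/EBP motif, 4.05% the AP-1 motif, 7.67% the STAT motif and 12.9% the TATA box. The starts given for Il6st, Il6r, Lifr, Osmr and Socs3 lay inside the gene, so their windows are not shown. The Socs3 window held an NF-κB match on both strands at the same bases, 161 to 152 before that start. The windows of Il6st, Il6r, Lifr and Osmr held no match. Lif and Clcf1 had no entry. A match describes letters in a sequence and does not show that a factor binds there.

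Between 16841580 and 25903459 reads per library had been counted on genes. Levels are given as FPKM, the count divided by the gene length and by the total of the library, and levels of different genes are compared only on this scale and within a species. Changes were tested on the counts with edgeR's quasi-likelihood test after TMM scaling, and P was adjusted after Benjamini and Hochberg over every gene that was tested in that species. A gene was called when its adjusted P was under 0.05. In mouse, the TMM factors of the MC libraries were 1.10 and those of the MM libraries 0.905 to 0.911. Over all mouse genes, the median log2 fold change shifted from -0.016 under TMM to -0.295 when libraries were scaled by their size alone. Mouse log2 fold changes from counts are therefore more positive than those read from FPKM. Rises are larger on the count scale, and falls are smaller or can turn into rises. Counts of markers called are to be read against all genes tested. Of these, 35.1% were called in rat (18.3% higher) and 75.0% in mouse (37.4% higher). The 10 chondrocyte markers examined, among them Col2a1 and Acan, were called lower with IL-1β in both species. These 10 had a mean FPKM of at least 1 in every group, except Matn3 with 0.162 in MM. Their summed FPKM was between 5081.5 and 5715.7 in RC and between 2008.8 and 2053 in RM. In mouse, it was between 2404.4 and 2447.6 in MC and between 210.3 and 223.9 in MM. Of 9 macrophage and leukocyte markers, 5 were tested in rat and 3 in mouse. In rat, 2 (Cd14 and Cd68) were called higher and 1 (Csf1r) lower. In mouse, all 3 tested (Cd14, Cd68 and Csf1r) were called higher. The summed FPKM of this marker list rose from between 17.3 and 20.9 in RC to between 30.6 and 34.9 in RM. In mouse, it rose from between 5.69 and 6.95 in MC to between 32.2 and 33.6 in MM. Ptprc, the pan-leukocyte marker, and the macrophage markers Adgre1 and Csf1r had a mean FPKM under 1 in every group, and Itgam had no count in mouse. Of 6 fibroblast and synovium markers, 2 were called higher and 2 lower in rat, and 4 higher and 2 lower in mouse. Their summed FPKM was between 3896.9 and 4455.1 in RC and between 3069.9 and 3156.2 in RM, and between 2344.7 and 2369.8 in MC and between 1416 and 1429.2 in MM. Among them was Prg4, which encodes lubricin. The mean FPKM of Prg4 rose from 8.49 in RC to 476 in RM and from 12.9 in MC to 109 in MM, and that of Pdpn from 75.6 in MC to 413 in MM. Col3a1 and Pdgfra were also called higher in mouse, but their mean FPKM did not rise. It was 339 in MC and 313 in MM for Col3a1, and 26.4 in MC and 26.0 in MM for Pdgfra. Of 5 osteoblast markers, 2 of 3 tested were called lower in rat and 5 of 5 in mouse, with a summed FPKM of 8.24 to 9.13 in RC, 2.07 to 2.99 in RM, 16.2 to 17.0 in MC and 1.69 to 1.83 in MM. The endothelial markers, 4 in rat and 5 in mouse, all had a mean FPKM under 1. The part of these marker changes in the results was not tested. In such bulk samples, a change in the share of producing cells and a change in the RNA per cell cannot be told apart.

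Most of the examined IL-6 family genes were upregulated with IL-1β in rat, and all 9 were in mouse. Related genes outside this set did not all follow. Il11ra1 and, less firmly in rat, Ctf1 were called lower in both species, and Cntfr was called lower in rat. In rat, 7 of the 8 genes were called higher in RM than in RC and none was called lower, with Il11 short of the threshold. Over all 13303 rat genes tested, 35.1% were called, 18.3% as higher. In mouse, all 9 genes were called higher in MM than in MC. Over all 14774 mouse genes tested, 75.0% were called, 37.4% as higher. The replicates spread less in mouse than in rat. The common coefficient of variation beyond counting error was 0.032 in mouse and 0.106 in rat. Shares called and P values are therefore not comparable between the species. The model libraries lay above the control libraries without overlap for 7 of the 8 rat genes, against 47.8% of all rat genes without overlap and 25.5% without overlap and higher. In mouse, this held for all 9 genes, against 80.3% and 25.4% of all mouse genes. The median log2 fold change of the genes was 1.20 in rat, against 0.0052 for all rat genes tested, and 1.76 in mouse, against -0.016. The study's criteria were read here as a log2 change of 0.85 or more up or down, although its methods speak only of a fold change, together with an unadjusted P under 0.05 and 1 library that reaches an FPKM of 1. By these, 7 of 8 rat genes and 8 of 9 mouse genes were higher. Of all rat genes tested, 8.54% met these criteria, 4.64% as higher, and of all mouse genes tested 25.6%, 12.6% as higher. These shares describe the genes and are no test of the family, whose members were chosen with such results known.

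**Figure D1:**
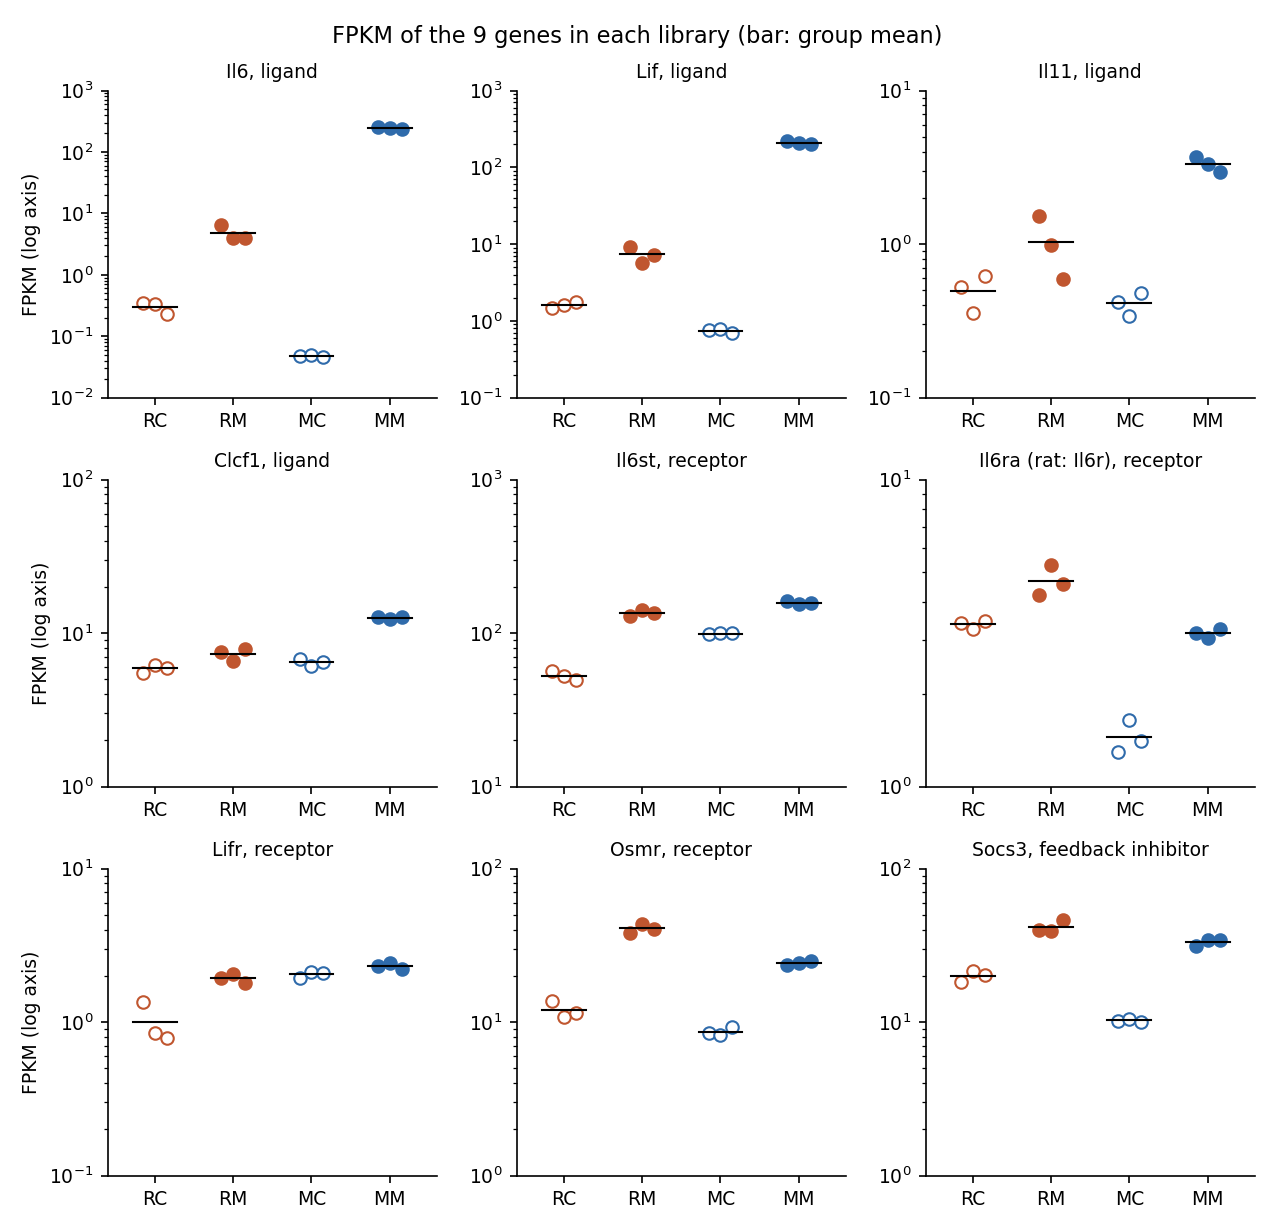
FPKM of each gene (log axis) in the 12 libraries, with open points for the control groups RC and MC, filled points for the IL-1β model groups RM and MM, and a bar at the group mean. The model and control libraries of a species do not overlap in any panel except for Il11 in rat, where the lowest RM library (0.593) lies under the highest RC library (0.616).

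Il6, the name-giving cytokine of the family, had the largest change of the ligand genes in both species. In the RC libraries, its FPKM was 0.346, 0.330 and 0.227, from 9, 8 and 5 counts. In the RM libraries, it was 6.50, 4.03 and 3.95, from 137, 109 and 99 counts. Every RM library was above every RC library, and the log2 fold change was 3.95 ± 0.32 (SE, n = 3 against 3, adjusted P = 7.24e-06 by edgeR), which ranked 46 of 13303 from the top. The summed counts rose from 22 to 345, a depth-scaled ratio of 15.3 with an exact 95% counting interval of 9.97 to 24.8, which covers counting error only.

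In mouse, Il6 (ENSMUSG00000025746, chromosome 5, 30013114 to 30019981, plus strand, GRCm38) was close to undetected in control cells. The FPKM in the MC libraries was 0.0481, 0.0489 and 0.0459, from 2 counts each, which is under the 3 counts that a count of 0 allows. In the MM libraries, it was 250.2, 249 and 232, from 12177, 11842 and 9856 counts. The groups were far apart and the MM libraries were close to each other. The log2 fold change was 12.51 ± 0.089 (SE, n = 3 against 3, adjusted P = 3.12e-74 by edgeR), rank 5 of 14774. The SE understates the error of a ratio against 6 control counts: the depth-scaled ratio of the summed counts was 6229 with an exact 95% counting interval of 2862 to 16975.

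Lif encodes leukaemia inhibitory factor. In rat, its FPKM was 1.46, 1.61 and 1.79 in RC and 9.15, 5.67 and 7.28 in RM. The groups did not overlap, and the log2 fold change was 2.17 ± 0.19 (SE, n = 3 against 3, adjusted P = 1.17e-05 by edgeR). In mouse, Lif (ENSMUSG00000034394, chromosome 11, 4257557 to 4272514, plus strand, GRCm38) had an FPKM of 0.752, 0.792 and 0.704 in MC and of 219, 205 and 198 in MM. This was a log2 fold change of 8.39 ± 0.056 (SE, n = 3 against 3, adjusted P = 2.06e-75 by edgeR), rank 40 of 14774. The MC libraries held 169 counts in all, and this SE understates the error of a ratio against them. Lif was thus the second ligand gene that went from a low level in control cells to a level near that of Il6 in the MM group.

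Il11 encodes IL-11, which acts through its own receptor and gp130. In rat, its FPKM was 0.523, 0.356 and 0.616 in RC (22, 14 and 22 counts) and 1.52, 0.982 and 0.593 in RM (52, 43 and 24 counts). RM replicate 3 lay within the range of the RC libraries. The log2 fold change was 1.02 ± 0.38 (SE, n = 3 against 3, adjusted P = 0.0579, unadjusted P = 0.0213 by edgeR), with a 95% interval of 0.18 to 1.86. Without RM replicate 1, it was 0.65 (adjusted P = 0.242). It was called without RM replicate 3 (1.31, adjusted P = 0.0211) and without the filter on low counts (adjusted P = 0.0408). In mouse, Il11 (ENSMUSG00000004371, chromosome 7, 4772373 to 4782859, minus strand, GRCm38) had an FPKM of 0.421, 0.342 and 0.482 in MC and of 3.69, 3.32 and 2.97 in MM. Here the groups did not overlap, with a log2 fold change of 3.27 ± 0.22 (SE, n = 3 against 3, adjusted P = 1.62e-21 by edgeR).

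Clcf1 encodes cardiotrophin-like cytokine factor 1. It was the most abundant of the 4 ligand genes in both control groups and changed least. In rat, its FPKM was 5.52, 6.22 and 5.96 in RC and 7.58, 6.59 and 7.90 in RM. The libraries did not overlap, but the log2 fold change was only 0.30 ± 0.11 (SE, n = 3 against 3, adjusted P = 0.0489 by edgeR). This call is not firm, since it was lost with DESeq2 (adjusted P = 0.0807), without the filter on low counts (adjusted P = 0.0641) and in 5 of the 6 fits that left out a library, all but that without RM replicate 2 (highest adjusted P = 0.166, without RM replicate 3). In mouse, Clcf1 (ENSMUSG00000040663, chromosome 19, 4214238 to 4223490, plus strand, GRCm38) had an FPKM of 6.81, 6.12 and 6.52 in MC and of 12.6, 12.4 and 12.7 in MM. The log2 fold change was 1.23 ± 0.063 (SE, n = 3 against 3, adjusted P = 6.27e-27 by edgeR). Mouse Clcf1 shares 311 exon bases with AC109138.7, a gene on the same strand, so reads in that stretch cannot be assigned to 1 gene.

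Il6st, which encodes gp130, was by far the most abundant receptor gene. In rat, its FPKM was 56.2, 52.5 and 49.6 in RC and 128, 141 and 136 in RM. In mouse, Il6st (ENSMUSG00000021756, chromosome 13, 112464070 to 112510086, plus strand, GRCm38) had an FPKM of 98.0, 99.6 and 100.4 in MC and of 161, 155 and 157 in MM. The model libraries were above the control libraries in both species. The log2 fold change was 1.34 ± 0.073 in rat (SE, n = 3 against 3, adjusted P = 4.86e-07 by edgeR) and 0.94 ± 0.025 in mouse (SE, n = 3 against 3, adjusted P = 5.06e-42 by edgeR). With library size alone, the mouse value was 0.67.

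The gene of the ligand-binding IL-6 receptor was expressed at a few FPKM. Rat Il6r had an FPKM of 3.41, 3.27 and 3.45 in RC and of 4.20, 5.25 and 4.58 in RM, a log2 fold change of 0.46 ± 0.10 (SE, n = 3 against 3, adjusted P = 0.0065 by edgeR). With Il6r counted as the rat Il6ra, 8 of 9 rat genes were called higher. Mouse Il6ra (ENSMUSG00000027947, chromosome 3, 89864059 to 89913196, minus strand, GRCm38) had an FPKM of 1.30, 1.65 and 1.41 in MC and of 3.16, 3.06 and 3.27 in MM. The groups did not overlap, and the log2 fold change was 1.40 ± 0.085 (SE, n = 3 against 3, adjusted P = 5.04e-23 by edgeR). An antisense gene, Gm42809, overlaps 242 exon bases of mouse Il6ra, and the strand setting of the counting is not given in the sources used here.

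Lifr, the receptor subunit for LIF, was among the least expressed receptor genes. In rat, its FPKM was 1.36, 0.847 and 0.782 in RC and 1.94, 2.04 and 1.80 in RM, so that RC replicate 1 was high within its group but under every RM library. The log2 fold change was 0.93 ± 0.20 (SE, n = 3 against 3, adjusted P = 0.00464 by edgeR). In mouse, Lifr (ENSMUSG00000054263, chromosome 15, 7090614 to 7197489, plus strand, GRCm38) had an FPKM of 1.93, 2.13 and 2.09 in MC and of 2.32, 2.43 and 2.22 in MM. The groups were adjacent without overlap, and the log2 fold change was 0.46 ± 0.075 (SE, n = 3 against 3, adjusted P = 1.42e-07 by edgeR). This mouse change depended on the scaling: it was 0.18 with library size alone (adjusted P = 0.0230) and was not called with limma on log2(FPKM + 1) (0.12, adjusted P = 0.0871). It did not reach the fold of the study's criteria.

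Osmr encodes the receptor subunit for oncostatin M. In rat, its FPKM was 13.7, 10.7 and 11.5 in RC and 38.2, 43.8 and 40.3 in RM. In mouse, Osmr (ENSMUSG00000022146, chromosome 15, 6813577 to 6874969, minus strand, GRCm38) had an FPKM of 8.48, 8.27 and 9.30 in MC and of 23.6, 24.2 and 24.8 in MM. Osmr had the largest log2 fold change of the receptor genes in both species, with 1.75 ± 0.10 in rat (SE, n = 3 against 3, adjusted P = 6.99e-07 by edgeR) and 1.76 ± 0.037 in mouse (SE, n = 3 against 3, adjusted P = 9.32e-48 by edgeR). Its ligand gene Osm had an FPKM of at most 0.0872 in every rat library and was not tested, and no row of the mouse table carried that symbol.

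Socs3, the feedback inhibitor, was already expressed in control cells. In rat, its FPKM was 18.1, 21.4 and 20.4 in RC and 39.6, 39.0 and 46.5 in RM, a log2 fold change of 1.05 ± 0.10 (SE, n = 3 against 3, adjusted P = 2.50e-05 by edgeR). In mouse, Socs3 (ENSMUSG00000053113, chromosome 11, 117966079 to 117970047, minus strand, GRCm38) had an FPKM of 10.2, 10.5 and 10.1 in MC and of 31.1, 34.2 and 34.3 in MM, a log2 fold change of 1.97 ± 0.052 (SE, n = 3 against 3, adjusted P = 2.16e-42 by edgeR). The control and model libraries were well separated in both species.

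**Figure D2:**
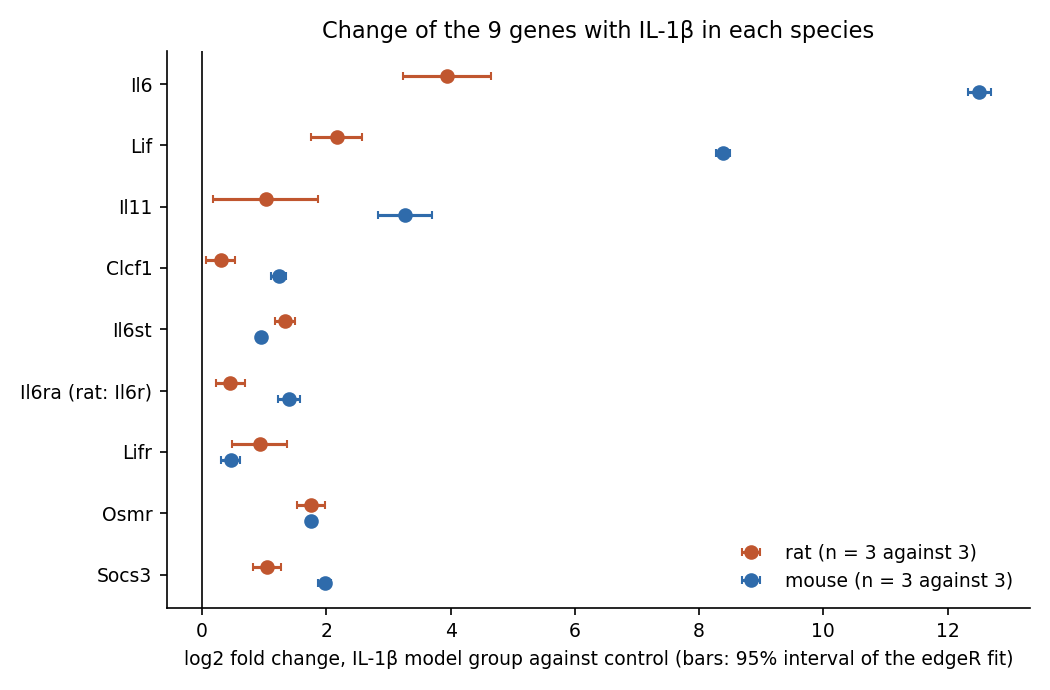
Log2 fold change of the model group against the control group for each gene in rat and mouse, from the edgeR fits of 3 libraries against 3, with bars for the 95% interval of the fit. For mouse Il6 and Lif, whose control counts are few, the bars are narrower than counting error alone would make them. Il6 (3.95 in rat, 12.51 in mouse) and Lif (2.17 and 8.39) lie far apart between the species, whereas Osmr (1.75 and 1.76) nearly coincides, although the sign of that small difference turned with the scaling and with the library left out.

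The changes with IL-1β were then compared between the species in 1 fit over the 10892 shared genes tested in both. The difference is the log2 fold change in mouse minus that in rat. Of the 8 genes with the same symbol, 6 differed, 5 with the larger change in mouse and 1 with the larger change in rat. Of all shared genes tested, 63.9% differed, 31.5% with the more positive change in mouse and 32.4% with the more positive change in rat. Il6, Lif and Il11 had the largest differences. The difference was 8.60 ± 0.73 for Il6 (SE, 3 libraries in each of 4 groups, adjusted P = 1.86e-08 by edgeR). It was 6.23 ± 0.24 for Lif (adjusted P = 6.82e-13), 2.26 ± 0.45 for Il11 (adjusted P = 0.000325) and 0.93 ± 0.12 for Clcf1 (adjusted P = 2.37e-06). The change of Socs3 was also larger in mouse, by 0.92 ± 0.11 (adjusted P = 2.03e-06). Il6ra, compared with rat Il6r in a further fit with this pair added, had a larger change in mouse by 0.94 ± 0.14 (adjusted P = 1.85e-05).

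The differences of the other receptor genes were not called or of the opposite sign. For Il6st, the difference was -0.40 ± 0.074 (adjusted P = 0.000173 by edgeR), that is, a larger change in rat. For Lifr, it was -0.46 ± 0.20 (adjusted P = 0.0517), with a 95% interval of -0.89 to -0.041. This was called without RC replicate 1 (-0.75, adjusted P = 0.000118), and without RM replicate 3 (-0.52, adjusted P = 0.0470). It was also called with DESeq2 (-0.47, adjusted P = 0.0344), library size alone (-0.76, adjusted P = 0.00288), TMM over all 12 libraries (-0.50, adjusted P = 0.0349), limma on log2(FPKM + 1) (-0.44, adjusted P = 0.00762) and the replicate block (-0.50, adjusted P = 0.0343), but not without the filter on low counts (adjusted P = 0.0531). For Osmr, the difference was 0.01 ± 0.11 (adjusted P = 0.956), with a 95% interval of -0.22 to 0.24, and with library size alone it was -0.29 (adjusted P = 0.0276).

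The levels of the genes were ordered within each group on the FPKM scale. In the RC group, the order by mean FPKM was Il6st, Socs3, Osmr, Clcf1, Il6r, Lif, Lifr, Il11 and Il6, from 52.8 ± 3.33 for Il6st (SD, n = 3) to 0.301 ± 0.0647 for Il6, and no neighbours overlapped. In the MC group, it was Il6st, Socs3, Osmr, Clcf1, Lifr, Il6ra, Lif, Il11 and Il6, from 99.3 ± 1.24 (SD, n = 3) to 0.0476 ± 0.00158, again without overlap. The first 4 places and the last 2 places were thus held by the same genes in both control groups.

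In the RM group, Il6st stayed first with 135 ± 6.58 (SD, n = 3). Socs3 (41.7 ± 4.18) and Osmr (40.8 ± 2.82) overlapped, as did Lif (7.37 ± 1.74) and Clcf1 (7.35 ± 0.685), and Il6 (4.83 ± 1.45) and Il6r (4.67 ± 0.533). Lifr (1.93 ± 0.123) and Il11 (1.03 ± 0.468) came last. In the MM group, Il6 with 244 ± 10.1 (SD, n = 3) and Lif with 207 ± 10.6 moved above Il6st with 158 ± 2.70, and their libraries did not overlap. Socs3 (33.2 ± 1.80), Osmr (24.2 ± 0.589) and Clcf1 (12.6 ± 0.167) followed. Il11 (3.33 ± 0.361) and Il6ra (3.16 ± 0.106) overlapped, and Lifr was last with 2.33 ± 0.105.

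The summed FPKM of the 4 ligand genes was 8.32 ± 0.408 in RC and 20.6 ± 3.82 in RM (SD, n = 3). In mouse, it was 7.70 ± 0.366 in MC and 467 ± 19.8 in MM. The summed FPKM of the 4 receptor genes was 69.1 ± 4.90 in RC, 182 ± 9.92 in RM, 112 ± 1.76 in MC and 187 ± 2.30 in MM. The ligand genes together therefore stayed under the receptor genes in RC, RM and MC and exceeded them in MM. Clcf1 held 70.9% ± 1.92 of the ligand sum in RC and 36.3% ± 4.99 in RM (SD, n = 3), and 84.2% ± 0.505 in MC but 2.70% ± 0.133 in MM. Il6 held 3.64% ± 0.908 in RC, 23.2% ± 3.10 in RM, 0.620% ± 0.0429 in MC and 52.2% ± 0.771 in MM. Lif held 35.6% ± 2.36 in RM and 44.4% ± 0.749 in MM. Of the receptor sum, Il6st held 76.4% ± 1.38 in RC, 74.1% ± 0.517 in RM, 89.1% ± 0.336 in MC and 84.1% ± 0.458 in MM. The share of Osmr was 17.3% ± 1.21 in RC, 22.3% ± 0.363 in RM, 7.78% ± 0.407 in MC and 12.9% ± 0.423 in MM. These sums and shares of mRNA levels were not tested.

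**Figure D3:**
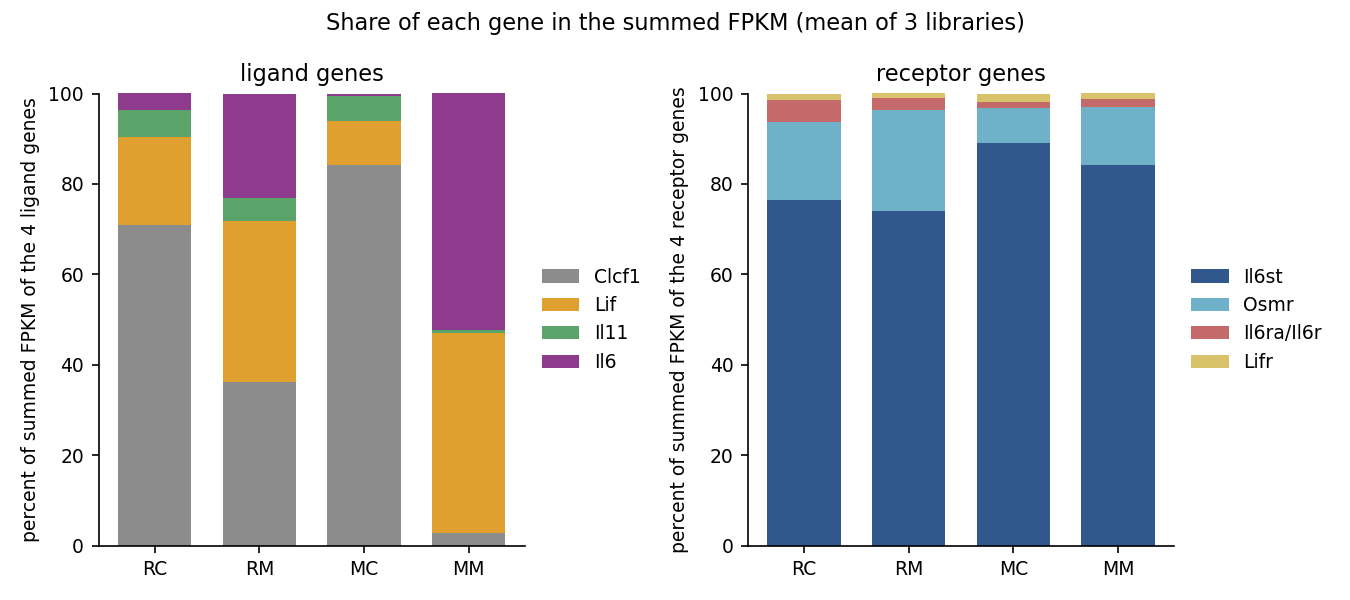
Share of each gene in the summed FPKM of the 4 ligand genes (left) and of the 4 receptor genes (right), in percent, as the mean of the 3 libraries of each group. Clcf1 makes up 70.9% of the ligand sum in RC and 84.2% in MC, whereas Il6 and Lif make up 52.2% and 44.4% in MM, and Il6st makes up most of the receptor sum in all 4 groups.

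The other genes of the pathway were taken from lists of 52 genes. In rat, 45 were tested, and 24 were called higher and 8 lower, where 35.1% of all rat genes were called and 18.3% were higher. In mouse, 43 were tested, and 30 were called higher and 8 lower, where 75.0% of all mouse genes were called and 37.4% were higher. The counts of the lists that follow are to be read against these shares. Of the 6 other ligands and soluble partners, 3 were tested in rat (1 higher, 1 lower) and 1 in mouse (lower). Ctf1, which encodes cardiotrophin-1, fell in both species, from an FPKM of 7.61 ± 0.102 in RC to 5.73 ± 0.662 in RM and from 3.40 ± 0.145 in MC to 1.07 ± 0.0525 in MM (SD, n = 3). The rat call of Ctf1 (adjusted P = 0.0238 by edgeR) was lost without RC replicate 2 (0.0566), RC replicate 3 (0.0633), RM replicate 1 (0.0505) or RM replicate 2 (0.0966). Cntf, the gene of ciliary neurotrophic factor, rose in rat from 1.22 ± 0.488 to 2.69 ± 0.458 FPKM (adjusted P = 0.0144 by edgeR) and was not tested in mouse, where it had 4 counts in MC and 2 in MM. The rat call of Cntf was lost without RC replicate 3 (adjusted P = 0.0571) or RM replicate 1 (adjusted P = 0.0602).

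Of the other receptors and shedding proteases, 2 were called higher and 2 lower of 4 tested in rat, and 1 higher and 1 lower of 3 tested in mouse. Il11ra1, the receptor that binds IL-11, fell in both species, by 0.73 ± 0.12 on the log2 scale in rat (SE, n = 3 against 3, adjusted P = 0.00106 by edgeR) and by 1.85 ± 0.051 in mouse (adjusted P = 5.39e-41 by edgeR). Cntfr, the receptor that binds ciliary neurotrophic factor and the Clcf1 product, fell in rat from 1.33 ± 0.333 FPKM in RC to 0.114 ± 0.0284 in RM (SD, n = 3, adjusted P = 3.64e-05 by edgeR), with 15 counts left over the RM group. In mouse, it was not tested. The 3 MC libraries held 9 counts in all (FPKM 0.0626 ± 0.0429) and the MM libraries 38 (FPKM 0.236 ± 0.0623), without overlap. Adam17, a protease that sheds the IL-6 receptor from the cell surface, rose in both species, by 0.69 ± 0.085 in rat (adjusted P = 0.000139 by edgeR) and 0.47 ± 0.039 in mouse (adjusted P = 4.81e-17 by edgeR) on the log2 scale. Adam10, another shedding protease, rose in rat by 0.53 ± 0.13 (adjusted P = 0.0103 by edgeR), a call lost without RC replicate 3 (adjusted P = 0.0540). Its mouse value was 0.07 with TMM (adjusted P = 0.106) and -0.21 with library size alone.

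Among 7 kinases, STATs and SHP2, 2 were called higher and 3 lower in rat (35.1% of all genes called), and 4 higher and 2 lower in mouse (75.0% of all genes called). Jak1, the kinase most used by gp130, fell by 0.32 ± 0.071 in rat (SE, n = 3 against 3, adjusted P = 0.00599 by edgeR) and rose by 0.86 ± 0.031 in mouse (adjusted P = 6.42e-35 by edgeR). Jak2, another of its kinases, rose by 1.12 ± 0.12 in rat (adjusted P = 6.79e-05 by edgeR), with a mouse value of -0.05 ± 0.060 (adjusted P = 0.446). With library size alone, mouse Jak2 was called lower (-0.33, adjusted P = 1.36e-06), as it was with limma on log2(FPKM + 1) (-0.29, adjusted P = 0.000571) and on log2(FPKM + 0.1) (-0.33, adjusted P = 0.000531). The difference between the species was 1.18 ± 0.074 for Jak1 (adjusted P = 3.85e-10 by edgeR) and -1.17 ± 0.14 for Jak2 (adjusted P = 1.95e-06 by edgeR). Stat3, the main transcription factor of the pathway, rose by 0.25 ± 0.066 in rat (adjusted P = 0.0144 by edgeR) and by 0.64 ± 0.031 in mouse (adjusted P = 9.44e-28 by edgeR). Stat3 lies outside the rule for naming genes and was named after its values had been seen. Ptpn11, which encodes the phosphatase SHP2, had a value of 0.11 ± 0.067 in rat (adjusted P = 0.218 by edgeR) and rose by 0.72 ± 0.031 in mouse (adjusted P = 2.58e-30 by edgeR). Stat5a fell by 0.28 ± 0.083 in rat (adjusted P = 0.0248 by edgeR) and by 0.94 ± 0.057 in mouse (adjusted P = 4.58e-23 by edgeR). The rat call of Stat5a was lost with limma on log2(FPKM + 1) (adjusted P = 0.0572) and without RC replicate 2 (0.0722), RM replicate 1 (0.0745) or RM replicate 2 (0.116).

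Of 11 other negative regulators, 4 were called higher and 2 lower in rat, and 6 higher and 4 lower in mouse, against 35.1% and 75.0% of all genes called. Socs2, a relative of Socs3 known for its part in growth hormone signalling, moved opposite to Socs3. Of its 13 counts over the RM group, 9 were in RM replicate 3. Its FPKM fell from 1.49 ± 0.198 in RC to 0.130 ± 0.117 in RM and from 3.87 ± 0.0478 in MC to 0.602 ± 0.0424 in MM (SD, n = 3). The log2 fold change was -3.50 ± 0.45 in rat (adjusted P = 0.000186 by edgeR) and -2.40 ± 0.092 in mouse (adjusted P = 2.05e-33 by edgeR). Without RM replicate 3, the rat value was -4.54 (adjusted P = 9.56e-05). Socs5 rose in both species, by 0.62 ± 0.073 in rat (adjusted P = 0.000117 by edgeR) and 0.93 ± 0.051 in mouse (adjusted P = 2.75e-25 by edgeR). Socs6 was 7.58 ± 0.364 FPKM in RC and 8.17 ± 0.461 in RM (adjusted P = 0.422 by edgeR) and rose in mouse from 4.15 ± 0.196 to 6.70 ± 0.287 (adjusted P = 5.68e-24 by edgeR). Ptpn2, which encodes a phosphatase acting on JAK and STAT proteins, rose by 0.57 ± 0.15 in rat (adjusted P = 0.0124 by edgeR) and by 1.87 ± 0.060 in mouse (adjusted P = 1.67e-37 by edgeR). Ptpn2 was not called in rat without RM replicate 1 (adjusted P = 0.0504).

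Of 14 genes known as STAT3 targets, 11 of 13 tested were called higher in rat and 14 of 14 in mouse, and none was called lower in either species. Of all genes tested, 18.3% were called higher in rat and 37.4% in mouse. Many of these genes are also known to respond to NF-κB, which IL-1β activates, so the list is not specific to STAT3. Lcn2, the gene of the iron-binding protein lipocalin-2, rose from an FPKM of 4.01 ± 0.607 in RC to 1087 ± 24.4 in RM and from 1.30 ± 0.153 in MC to 2470.3 ± 36.8 in MM (SD, n = 3). Ccl2, a monocyte chemokine, rose from 8.25 ± 0.750 in RC to 344 ± 55.8 in RM and from 1.47 ± 0.336 in MC to 1059 ± 5.46 in MM. Cebpd, a transcription factor of the acute phase response, rose by 2.13 ± 0.10 in rat (SE, n = 3 against 3, adjusted P = 2.40e-07 by edgeR) and by 3.75 ± 0.044 in mouse (adjusted P = 1.14e-61 by edgeR) on the log2 scale. Hp, which encodes haptoglobin, was 0.778 ± 0.256 FPKM in RC and 1.04 ± 0.234 in RM (SD, n = 3, adjusted P = 0.361 by edgeR) but rose in mouse from 7.98 ± 0.0100 to 345 ± 10.5 (adjusted P = 1.92e-71 by edgeR). The difference between the species was 5.29 ± 0.28 for Hp on the log2 scale (adjusted P = 5.19e-11 by edgeR).

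Of 7 regulators of Il6, 4 were called higher in rat and 5 in mouse, and none lower, against 18.3% and 37.4% of all genes called higher. Nfkbiz, which encodes a nuclear IκB protein needed for the induction of Il6, rose by 4.13 ± 0.11 on the log2 scale in rat (SE, n = 3 against 3, adjusted P = 1.81e-09 by edgeR) and by 5.78 ± 0.043 in mouse (adjusted P = 3.92e-73 by edgeR). Zc3h12a encodes an RNase that degrades Il6 mRNA. Its FPKM was 4.05 ± 0.303 in RC and 48.1 ± 2.26 in RM (SD, n = 3), and 3.66 ± 0.227 in MC and 74.3 ± 1.34 in MM. The product of Arid5a protects Il6 mRNA. The FPKM of Arid5a was 3.32 ± 0.0948 in RC and 6.11 ± 0.185 in RM, and 1.09 ± 0.0737 in MC and 3.07 ± 0.203 in MM. Nfkb1, an NF-κB subunit gene, had an FPKM of 17.1 ± 0.341 in RC, 39.9 ± 0.346 in RM, 6.04 ± 0.0755 in MC and 18.6 ± 0.706 in MM. All 4 genes were called higher in both species. Among these 4, genes that promote Il6 expression and a gene whose product removes its mRNA were thus higher in the same libraries. The rest of the list lies outside the rule for naming genes and did not all follow. Zfp36 (log2 fold change -0.09 in rat and 0.17 in mouse) and Il1r1 (0.03 and 0.07) were called in neither species. Rela was called higher in mouse (1.52) but not in rat (0.03).

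**Figure D4:**
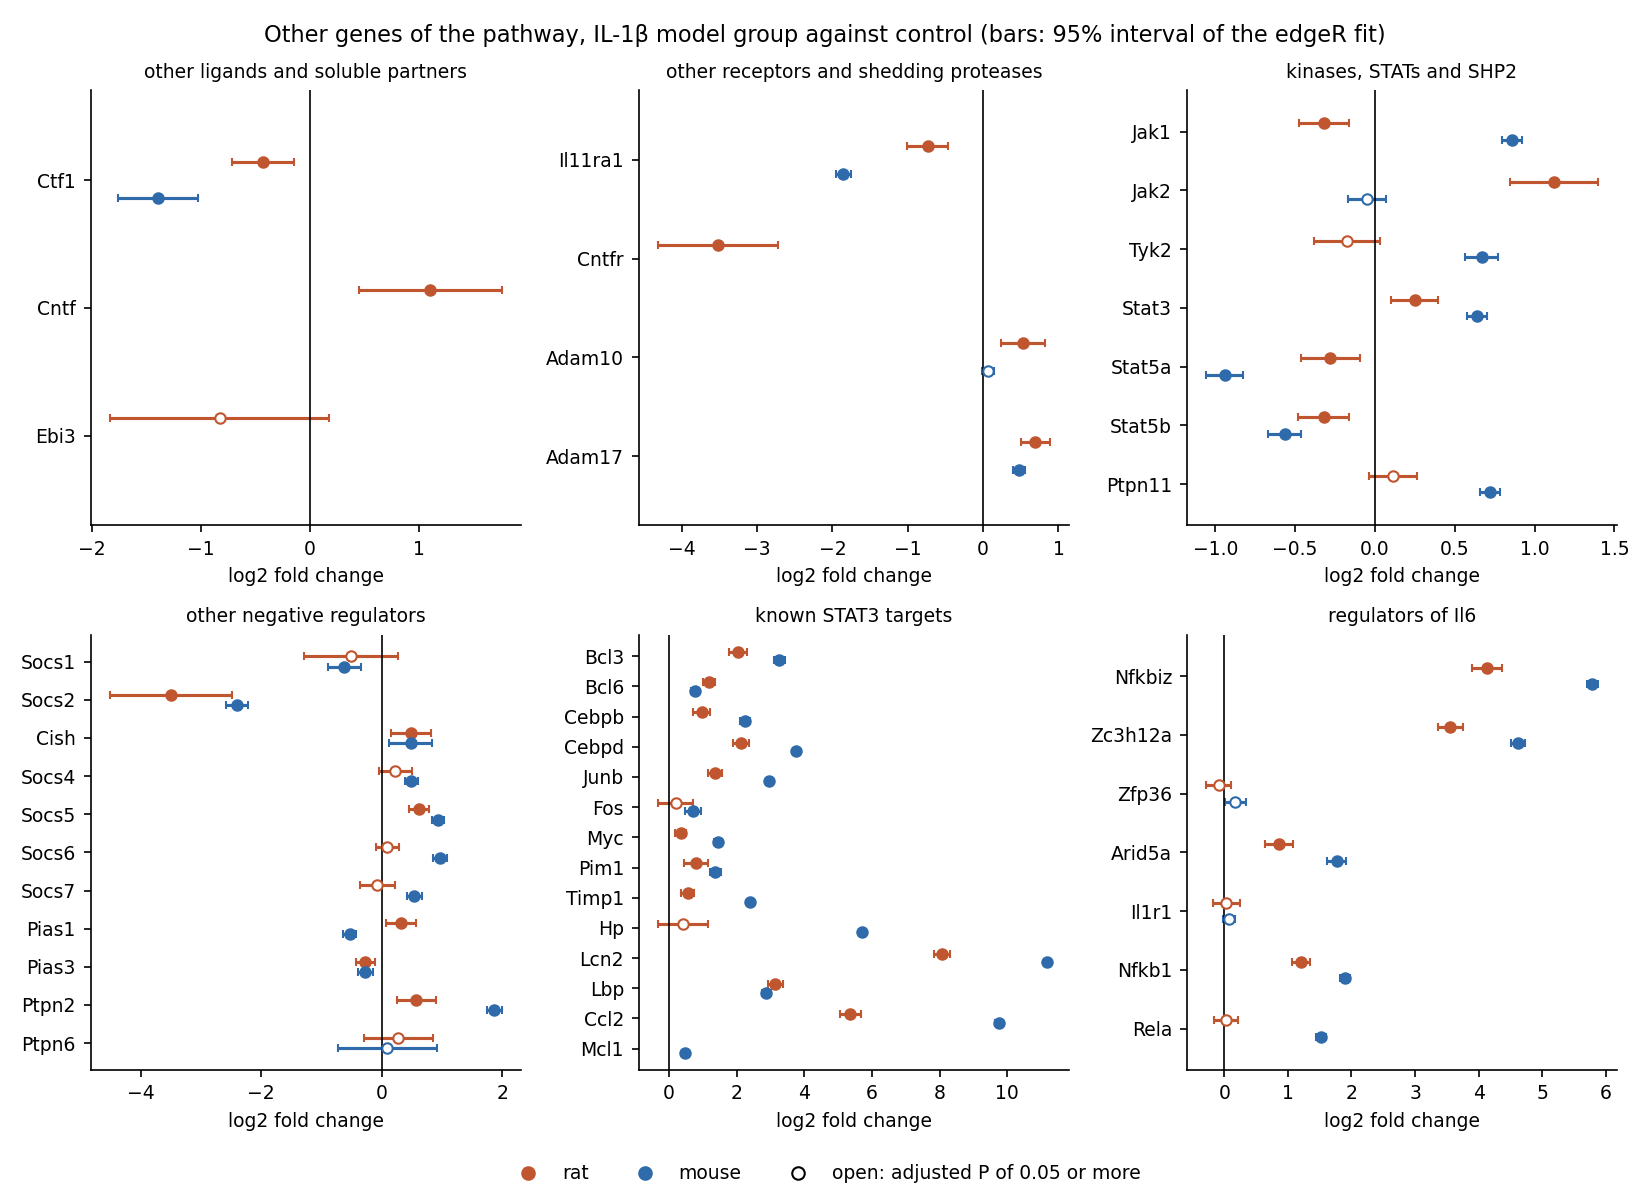
Log2 fold change with the 95% interval of the edgeR fit for the other genes of the pathway that were tested, in 6 panels by role, with 3 libraries against 3 in each species. Filled points were called and open points were not. For large changes from few control counts, as of mouse Lcn2 and Ccl2, the intervals are narrower than counting error alone would make them. The points of the known STAT3 targets lie right of 0 in both species, whereas the other panels hold points on both sides, and in mouse the sign of Adam10 turned with library size alone.

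The genes whose profile over the 12 libraries was most like that of Il6 were Il13ra2, a decoy receptor for IL-13, Cxcl2, a neutrophil chemokine, and Ptgs2, which encodes cyclooxygenase-2. Likeness was the root mean square difference of log2 CPM centred within each species, over 10892 genes, and it was 0.581 for Il13ra2, 0.677 for Cxcl2 and 0.777 for Ptgs2. For Socs3, the nearest genes were Zswim4 (0.101), Nfkb1 (0.104) and Tpi1 (0.106), the last a gene of glycolysis. The profiles turn on the same contrast of model and control. The log2 CPM used a prior count of 2, which shrinks changes that start from few counts. A small distance means only a like change on this scale. The tested log2 fold changes in rat and mouse were 3.47 and 10.8 for Il13ra2, 6.89 and 13.1 for Cxcl2, and 2.80 and 9.60 for Ptgs2. Those of Il6 were 3.95 and 12.51. The distances of the Il6 neighbours were larger than those of the Socs3 neighbours.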

How the data were processed

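The 12 RNA-seq libraries were grouped by their treatment labels into RC, RM, MC and MM, 3 libraries each. The submitters' processing notes name HISAT2, HTSeq 0.11.2 and the builds GRCm38 and Rnor_6.0. Whether counting used the strand is not given in the sources used here. Per species, 1 table was deposited by the authors with the raw read count of each Ensembl gene and library, without normalization, and FPKM values, which are relative to the total count of the library. The libraries held 16841580 to 25903459 counts, and a count of 0 allows up to 3 counts, or 0.116 to 0.178 CPM.

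Counts were fitted per species with edgeR 4.0.16 in R 4.3.3 (filterByExpr, TMM, glmQLFit and glmQLFTest), with Benjamini-Hochberg adjustment over all genes tested. For the difference between species, the genes with the same symbol in both tables were fitted together over the 12 libraries, each scaled against the libraries of its own species. DESeq2 1.42.0 and limma 3.58.1 on log2(FPKM + 1) and log2(FPKM + 0.1), library size alone, no filter, a replicate block, leaving out each library and the study's criteria were tried. Counting intervals cover counting error only. An exact permutation test of 1 gene cannot go below P = 0.1 in this design. No 2 replicates had identical values.

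All 9 genes are named. Of each other list, up to 4 genes with the largest log2 fold change in either direction and species were named, among those with an adjusted P under 0.05 there and a group mean of FPKM 1 or more, and the 3 nearest profiles of Il6 and of Socs3. The members and lists were chosen with earlier results of these data known. Mouse positions come from GENCODE M21. Of 11365 mouse genes with at least 100 counts in a library, 96.2% had an FPKM that implied the merged exon length of that annotation within 1 base. No rat gene positions are given, since the rat reference was of another build. Entries in the RefSeq promoter table matched 7 of the 9 genes. Some genes of the lists are not reported here and are not counted in them.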

Additional observations from a re-analysis of the deposited data

Results flagged for a closer look

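The effect of IL-1β was compared between rat and mouse for 29 named genes by the test of the difference itself. This was 1 edgeR fit with adjustment over all 10892 shared genes tested. Il6ra came from a further fit with the pair of rat Il6r and mouse Il6ra added. Of the 29, 27 differed at an adjusted P under 0.05. The genes outside the family set had been named for a large fold change in either species, which favours a difference. Of all shared genes tested, 63.9% differed, so a difference alone does not set these genes apart. Values are the log2 fold change in mouse minus that in rat, with 3 libraries in each of the 4 groups. Among the family, the difference was 8.60 for Il6, 6.23 for Lif, 2.26 for Il11, 0.93 for Clcf1, 0.94 for Il6ra (against rat Il6r), 0.92 for Socs3 and -0.40 for Il6st.

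Among the named STAT3 targets and regulators of Il6, the difference was 5.29 for Hp, 4.40 for Ccl2, 3.09 for Lcn2, 1.62 for Cebpd, 1.65 for Nfkbiz, 1.07 for Zc3h12a, 0.91 for Arid5a and 0.69 for Nfkb1. On the same lists, Bcl6, chosen here after its value was seen, had the more positive change in rat (-0.42, adjusted P = 0.00208 by edgeR), and the value of Lbp, chosen likewise, was -0.26 (adjusted P = 0.0815). Among the other negative regulators it was 1.30 for Ptpn2, 1.09 for Socs2, 0.88 for Socs6 and 0.32 for Socs5, where the positive value of Socs2 stands for a smaller fall in mouse. The sign was negative with limma on log2(FPKM + 1) for Socs2 (-0.46, adjusted P = 0.00204) and for Socs5 (-0.017, adjusted P = 0.870). Among the kinases, STATs and SHP2 it was 1.18 for Jak1, -1.17 for Jak2, 0.61 for Ptpn11 and -0.66 for Stat5a. Among the other ligands, receptors and proteases it was -0.96 for Ctf1, -1.12 for Il11ra1, -0.46 for Adam10 and -0.22 for Adam17.

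The Socs2 difference rests on few rat counts. It was 2.13 without RM replicate 3, 0.68 without RM replicate 2 (adjusted P = 0.153) and 0.85 without RM replicate 1 (adjusted P = 0.0936). The Adam17 difference (adjusted P = 0.0456) was called in 2 of the 12 fits that left out a library, those without RC replicate 1 (-0.29) and RM replicate 3 (-0.26).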

How the results depend on the processing

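The Il6 changes rest on 22 summed counts in RC and 6 in MC, so their size is known less precisely than their direction. Of 108 values of the family's genes over the rat alternatives, 96 kept their direction and side of the threshold, 10 lost the call and 2 gained it. In mouse, 106 of 108 kept them and 2 lost the call, and of 152 values of the difference between species, 136 kept them, 7 gained the call and 9, all of Osmr, changed sign. Leaving out each library gave 6 to 7 called family genes in rat, 9 in mouse and 6 to 7 for the difference. It gave 24 to 34 called pathway genes in rat and 38 to 40 in mouse, and 3303 to 6251 and 10824 to 10938 called genes over all genes tested.

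By the study's criteria, 16 pathway genes in rat (14 higher, 2 lower) and 24 in mouse (20 higher, 4 lower) were called, against 32 and 38 by the adjusted P, and over all genes tested 1136 against 4667 in rat and 3781 against 11085 in mouse. These criteria ask for a minimum fold. With library size alone, 3699 mouse genes were called higher and 8074 lower, against 5521 and 5564 with TMM. The mouse value of Adam10 (0.07) became -0.21 with library size alone, and with limma it was -0.20 on log2(FPKM + 1) and -0.21 on log2(FPKM + 0.1). The Osmr difference between species (0.01) was -0.29 with library size alone, -0.027 with TMM over all 12 libraries, -0.31 with limma, and -0.084 to 0.087 when a library was left out (-0.084, -0.038, -0.0037, -0.0092, -0.028 and -0.00060 where negative). With limma, the differences of Socs2 and Socs5 became -0.46 and -0.017. The causes of these changes were not tested.

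Same-numbered deviations from the group mean correlated over genes at 0.024, -0.098 and 0.085 in rat and 0.0012, 0.015 and 0.0048 in mouse. Pairs with different numbers lay between -0.185 and 0.162 in rat and between -0.010 and 0.0056 in mouse. With 3 libraries per group and little spread between mouse replicates, this cannot tell whether same-numbered libraries share an origin. With the replicate block, 6 rat and 9 mouse genes of the family were called and 7 for the difference, with 4534 rat and 11047 mouse genes over all genes tested.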
